A study of Mus musculus with 50 samples.

Results

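The 10 genes described here encode RNA-binding proteins that set how long inflammatory mRNAs last. They are the Zfp36 family (Zfp36, Zfp36l1 and Zfp36l2), the Regnase family (Zc3h12a, Zc3h12b, Zc3h12c and Zc3h12d), the Roquin family (Rc3h1 and Rc3h2) and Elavl1, which encodes HuR. They were chosen by gene symbol with no threshold on any value, and the symbols matched 10 of the 53700 genes counted in each mouse. All 10 reached a level of 1 CPM (counts per 1000000 counts) in more than 2 of the 50 mice and were therefore among the 16696 genes tested.

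Zfp36 proteins bind AU-rich elements in the 3′ untranslated region (UTR) of cytokine mRNAs and recruit the CCR4-NOT deadenylase, which shortens the poly-A tail and so starts decay. Zc3h12a encodes Regnase-1, an endonuclease, and the Roquins recognise stem-loops in an overlapping set of inflammatory mRNAs, whereas HuR also binds AU-rich sequences and is known mainly for stabilizing them. In macrophages and microglia, the Zfp36, Regnase-1 and Roquin proteins are known to limit the cytokine response to lipopolysaccharide (LPS), and Zfp36 is itself a rapidly induced gene.

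Male C57BL/6J mice were used to ask how early-life stress (ELS) and a later immune challenge affect hippocampal microglia. ELS was limited nesting and bedding material from postnatal day (P) 2 to P9 for dams with litters of 6 pups, and control litters (CTR) had standard material. Young mice were taken at P9 without injection (P9-CTR, n = 12, and P9-ELS, n = 13). Adult mice were taken at P200, 3 h after an intraperitoneal injection of saline (CTR-PBS, n = 7, and ELS-PBS, n = 6) or of 1 mg/kg LPS, a bacterial cell wall component (CTR-LPS, n = 7, and ELS-LPS, n = 5). In all groups, live CD45int CD11b+ microglia were sorted from both hippocampi, and their mRNA was sequenced as 1 library per mouse. Myelin was removed with Percoll only from the adult brains, so age, injection and Percoll cannot be told apart in any comparison of P200 with P9.

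The total count was between 5152838 and 42231258 per mouse. All 10 microglia markers checked, P2ry12 and Tmem119 among them, had a median of at least 1 CPM in every group, and their summed level was between 39234 and 91025 CPM. A set of 3 libraries stood apart by few detected genes, namely P9-ELS mice P9_19.3 (12482 genes) and P9_19.2 (15731 genes) and CTR-PBS mouse P200_1.1 (12854 genes). P9-ELS mouse P9_19.2 had the lowest Zfp36 of all mice, 8.46 CPM, and the highest Zfp36l2, Zc3h12b, Zc3h12d, Rc3h1, Rc3h2 and Elavl1 of its group. The counts of members past the adjusted p are therefore given with and without these libraries. Mice are named by age and by their label number, whose first part was taken as the nest. Strand use in the counting is not given in the sources used here. Reads of Zfp36, Zfp36l2, Zc3h12b, Zc3h12c, Zc3h12d, Rc3h2 and Elavl1 therefore cannot be told apart from those of genes annotated on the opposite strand. Examples are the lncRNA Gm44710 at Zfp36, the snoRNA Gm24726 at Zc3h12d and Ccl25 at Elavl1.

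LPS changed members of the Zfp36 and Regnase families and none of the Roquin family or Elavl1 past the threshold. In CTR mice, 5 of the 10 members passed edgeR's quasi-likelihood test at an adjusted p under 0.05, where 14.9% of all genes tested passed. Of these, 4 rose (8.73% of all genes rose) and 1 fell (6.2% of all genes fell). In ELS mice, 4 of 10 members passed (12.3% of all genes), with 3 that rose (7.4%) and 1 that fell (4.94%). Zfp36, Zfp36l1 and Zc3h12a rose and Zfp36l2 fell in each condition, and Zc3h12d rose in CTR mice, a call that was lost with the nest as a block (adjusted p = 0.108). All these changes were above 1 in absolute log2 fold change, which together with the adjusted p held for 9.62% of all genes in CTR and 7.86% in ELS. On the log2 scale the median change of the 10 members was 0.62 for CTR mice and 0.43 for ELS mice, beside 0.00 and -0.04 over all genes. Without P9-ELS mice P9_19.2 and P9_19.3, whose spread enters the same fit, 6 members passed in CTR, Zc3h12c in addition, and 5 in ELS, Zc3h12d in addition. Without CTR-PBS mouse P200_1.1 as well, 5 passed in each. In bulk samples such as these, fewer cells of a type and less RNA per cell cannot be told apart.

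**Figure D1:**
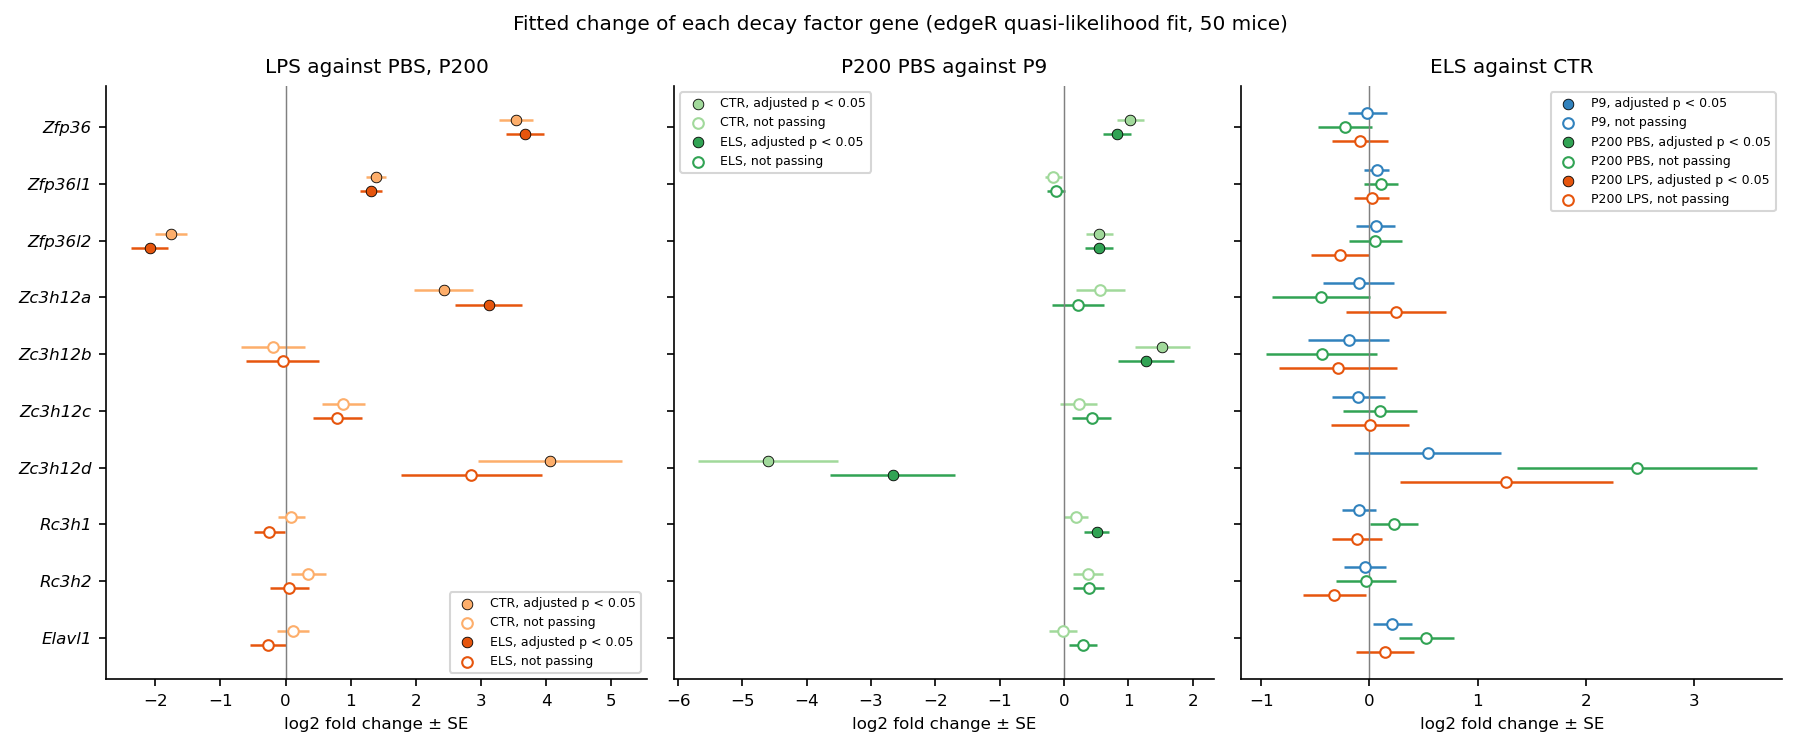
Fitted log2 fold change of each member with its standard error, for LPS against PBS at P200 (left), P200 PBS against P9 (middle) and ELS against CTR (right), and filled circles have an adjusted p under 0.05. Zfp36, Zfp36l1 and Zc3h12a lie right of 0 and Zfp36l2 left of 0 in the left panel for each condition, and no circle is filled in the right panel.

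Zfp36, also called tristetraprolin, is the best studied destabilizer of Tnf mRNA (ENSMUSG00000044786, GRCm39 chr7:28076209-28079710, minus strand). In CTR-PBS its level was 198, 256 and 331 CPM in the lowest, median and highest mouse, and in CTR-LPS it was 2315, 3139 and 4107 CPM. In ELS-PBS it was 190, 216 and 270 CPM, and the 5 ELS-LPS mice P200_2.2, P200_4.2, P200_11.2, P200_17.3 and P200_20.1 had 3287, 2853, 2318, 2995 and 2810 CPM. Every LPS mouse of each condition was far above every PBS mouse, and the ELS-LPS range lay within the CTR-LPS range. The groups of 3 members, Zfp36, Zfp36l1 and Zc3h12a, did not overlap upward in CTR (4.92% of all genes) or in ELS (5.65%), and those of Zfp36l2 did not overlap downward (2.56% and 4.35%). CTR mice showed a log2 fold change of Zfp36 of 3.54 ± 0.26 (SE, adjusted p = 1.74e-15), ELS mice 3.68 ± 0.29 (adjusted p = 1.85e-14), and the mean level was 11.6-fold and 12.8-fold higher.

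Zfp36l1 encodes a close relative that binds the same elements (ENSMUSG00000021127, chr12:80154528-80160006, minus strand). It had 232, 258 and 294 CPM in the lowest, median and highest CTR-PBS mouse, against 483, 620 and 1000 CPM in CTR-LPS. ELS-PBS mice had 212, 285 and 349 CPM, and the ELS-LPS mice in the same order had 982, 588, 453, 737 and 727 CPM. The groups were again separate, and CTR-LPS mice P200_8.2 and P200_8.3 and ELS-LPS mouse P200_2.2 were the highest, each near 1000 CPM. CTR mice showed a log2 fold change of 1.39 ± 0.15 (adjusted p = 3.61e-10), ELS mice 1.31 ± 0.17 (adjusted p = 4.71e-08).

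Zfp36l2, the third member of the family, moved the other way (ENSMUSG00000045817, chr17:84491132-84495382, minus strand). CTR-PBS mice had 43.2, 56.3 and 63.8 CPM in the lowest, median and highest, and CTR-LPS mice 7.70, 17.33 and 24.3 CPM. ELS-PBS mice had 39.7, 52.4 and 96.8 CPM, and the ELS-LPS mice had 6.42, 14.2, 14.7, 22.7 and 9.96 CPM. All LPS mice were below all PBS mice of their condition, and the highest PBS value, that of ELS-PBS mouse P200_20.2, stood well above the rest of its group. Zfp36l2 fell by 1.76 ± 0.25 on the log2 scale (adjusted p = 1.84e-07) in CTR, and it fell by 2.09 ± 0.29 (adjusted p = 1.74e-07) in ELS.

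**Figure D2:**
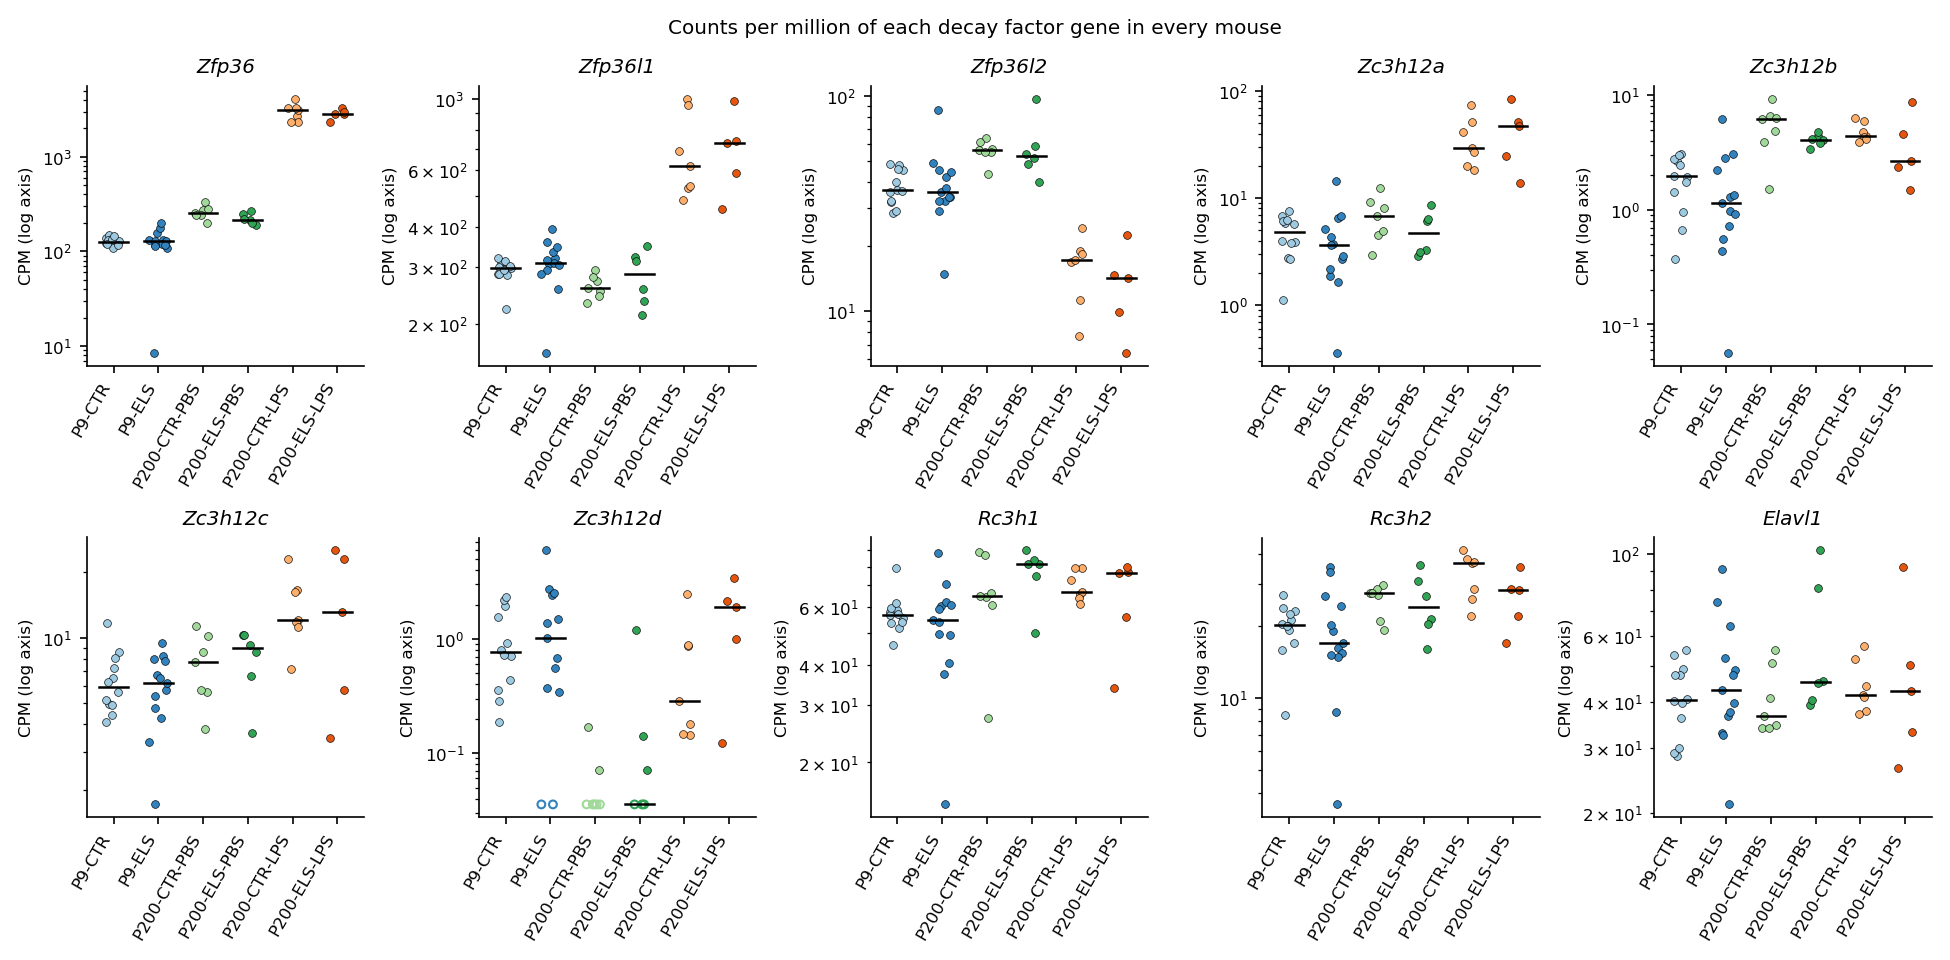
CPM (log axis) of the 10 members, with 1 point per mouse and a bar at the median of each of the 6 groups, and open circles at the bottom for mice with 0 counts, where a median of 0 has no bar. The LPS points of Zfp36, Zfp36l1 and Zc3h12a lie above and those of Zfp36l2 below all PBS points of the same condition, and the single low Zfp36 point of P9-ELS is mouse P9_19.2.

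The Zfp36 family mRNAs themselves carry the elements that their proteins bind. The nonamer TTATTTATT is the preferred binding sequence of Zfp36 and the heptamer TATTTAT its core, and each was searched on the transcript strand of the GENCODE canonical 3′ UTRs (GRCm39), where a nonamer match also holds heptamer matches. The nonamer occurred in 1732 of 20635 3′ UTRs (8.39%) and the heptamer in 29.6%. Zfp36, Zfp36l1 and Zfp36l2 each held 1 nonamer and 3 heptamers, Tnf held 5 and 8, Elavl1 held 8 and 9, Rc3h1 held 1 and 2, and Rc3h2 held 2 and 4. Zc3h12c held no nonamer and 3 heptamers, and neither was found in the 3′ UTR of Zc3h12a, Zc3h12b or Zc3h12d. These counts were not scaled by length. The 3′ UTR had 260 bases for Zc3h12b, 764 for Tnf and 774 for Zfp36, against 6336 for Rc3h2, 7024 for Elavl1 and 7181 for Rc3h1. The windows of 30 bases with the most matches are shown for the 3 family members, which moved in different directions, and for Tnf, with the matches in capitals. They lie at chr7:28076379-28076408, chr12:80154940-80154969, chr17:84492341-84492370 and chr17:35418653-35418682, all on the minus strand. A match describes the sequence and does not show binding.
Zfp36: TATTTATgacgactTTATTTATTgtattaa
Zfp36l1: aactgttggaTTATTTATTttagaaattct
Zfp36l2: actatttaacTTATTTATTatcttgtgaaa
Tnf: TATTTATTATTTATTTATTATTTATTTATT

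Among the Regnase genes, Zc3h12a rose most clearly (ENSMUSG00000042677, chr4:125012216-125021711, minus strand). Its product cleaves stem-loop mRNAs such as Il6 and its own. CTR-PBS mice had 2.97, 6.77 and 12.46 CPM in the lowest, median and highest, and CTR-LPS mice 18.5, 29.3 and 74.6 CPM. ELS-PBS mice had 2.89, 4.71 and 8.71 CPM, and the ELS-LPS mice in the order above had 51.6, 13.9, 24.9, 46.8 and 84.8 CPM. No LPS mouse fell into the PBS range, but the LPS mice spread widely, with CTR-LPS mouse P200_8.2 and ELS-LPS mouse P200_20.1 highest. Zc3h12a rose by 2.43 ± 0.45 on the log2 scale (adjusted p = 5.66e-05) for CTR mice and by 3.12 ± 0.51 (adjusted p = 7.95e-06) for ELS mice.

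Zc3h12d, a Regnase gene known from lymphocytes, was almost not detected in adult PBS mice (ENSMUSG00000039981, chr10:7708080-7746160, plus strand). CTR-PBS had 6 counts over 7 mice, with 2 mice above 0, and CTR-LPS had 94 counts with all 7 mice above 0. ELS-PBS had 32 counts, of which 25 came from mouse P200_17.2, and ELS-LPS had 130. The highest mice were CTR-LPS P200_8.2 with 2.47 CPM and ELS-LPS P200_2.2 with 3.39 CPM, and the LPS and PBS ranges overlapped in each condition. The fit gave 4.06 ± 1.11 on the log2 scale for CTR mice (adjusted p = 0.00725) and 2.85 ± 1.08 for ELS mice (adjusted p = 0.0764), values that at such counts depend on the prior count of the fit. In CTR it was 3.30 without CTR-LPS mouse P200_8.2, 5.59 without CTR-PBS mouse P200_18.2 and 3.52 (adjusted p = 0.108) with the nest as a block, and with only the adult CTR mice in the fit the gene was too low to be tested. The summed level of 8 lymphocyte markers was at most 2.24 CPM in any mouse, with Cd3e, Cd3g, Cd8a, Ms4a1 and Nkg7 at a median of 0 in every group. The part of such cells in the Zc3h12d counts was not tested.

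Zc3h12c and Zc3h12b did not pass. Zc3h12c, a Regnase gene expressed in macrophages (ENSMUSG00000035164, chr9:52020873-52080106, minus strand), had 3.81, 7.72 and 11.3 CPM in the lowest, median and highest CTR-PBS mouse and 7.21, 12.0 and 22.8 CPM in CTR-LPS, and 5 of the 7 LPS mice were above all PBS mice. On the log2 scale LPS mice differed by 0.89 ± 0.33 (adjusted p = 0.062) for CTR and by 0.80 ± 0.37 (adjusted p = 0.17) for ELS, where 3 of 5 LPS mice were above and mouse P200_11.2 (3.46 CPM) below all PBS mice. Zc3h12b had log2 fold changes of -0.19 ± 0.49 and -0.04 ± 0.56.

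The Roquin genes, whose proteins bind stem-loops and recruit the deadenylase, stayed within overlapping ranges. Rc3h1 had a median of 64.8 CPM in CTR-PBS, 66.7 in CTR-LPS, 81.4 in ELS-PBS and 76.5 in ELS-LPS, and Rc3h2 27.5, 36.9, 24.1 and 28.4 CPM. For Rc3h1 the log2 fold change had a 95% interval of -0.32 to 0.50 around 0.09 in CTR, and of -0.72 to 0.22 around -0.25 in ELS. That of Rc3h2 was 0.35 (-0.17 to 0.87) and 0.06 (-0.53 to 0.64). Elavl1, the stabilizer, had a median of 36.6 CPM in CTR-PBS, 41.6 in CTR-LPS, 45.1 in ELS-PBS and 42.6 in ELS-LPS, with log2 fold changes of 0.12 (-0.36 to 0.60) and -0.27 (-0.81 to 0.28). The bounds farthest from 0 were thus 0.87 in CTR and -0.81 in ELS, nearer to 0 than the fitted change of any member that passed.

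Neutrophil markers, whose cells could enter the sort after LPS, were at a median of 0 for all 8 genes in both LPS groups. Their summed level was at most 0.272 CPM in CTR-PBS and 1.84 CPM in CTR-LPS. It was at most 0.239 CPM in ELS-PBS and 9.99 CPM in ELS-LPS, the latter in mouse P200_17.3, with medians of 0.122 and 1.24 CPM. The 6 summed monocyte markers had at most 10.96 CPM in PBS mice and 8.36 CPM in LPS mice, with Ly6c2 at a median of 0. Of the 4 monocyte markers tested, Fn1 rose with LPS in CTR and Vcan in ELS, and none fell. Of the 10 microglia markers, Sall1, Gpr34 and P2ry12 fell in each condition. The summed level of 8 astrocyte markers was 302 to 503 CPM in PBS mice and 424 to 619 CPM in LPS mice. In the PBS groups 3 of the 8 had a median of at least 1 CPM, and in the LPS groups 4. Slc1a3 alone passed with LPS in CTR, and Gja1 and Gfap in ELS, all upward. The summed level of 7 endothelial markers was 30.3 to 73.4 CPM in PBS mice and 45.0 to 99.7 CPM in LPS mice. Of the 6 tested, Kdr and Cdh5 rose in CTR and none passed in ELS. A list of immediate early and dissociation-induced genes moved with LPS as Zfp36 did. Of its 13 tested genes, 11 rose in CTR (median 3.03 on the log2 scale) and 10 in ELS (2.90), and their summed level went from 549 to 896 CPM in PBS mice to 6167 to 11341 CPM in LPS mice. Dusp1, Btg2 and Atf3 are on that list and on lists below. The part of these lists in the member results was not tested.

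Within a mouse, the balance of a pair of genes does not depend on library scaling. The log2 CPM of Zfp36 minus that of Elavl1 was between 1.84 and 3.02 in CTR-PBS (median 2.75) and between 5.59 and 6.62 in CTR-LPS (median 5.99). It was 0.96 to 2.66 in ELS-PBS and 4.93 to 6.45 in ELS-LPS. The balance was higher in every LPS mouse, by 3.40 in CTR (exact two-sided permutation test, p = 0.000583, adjusted over 12 balance tests 0.0014) and by 3.98 in ELS (exact permutation p = 0.00216, the smallest possible there, adjusted 0.00371). Zfp36 minus Zfp36l1 went from a median of -0.08 to 2.26 in CTR and from -0.31 to 2.02 in ELS, differences in mean of 2.19 and 2.39 (exact permutation, adjusted p = 0.0014 and 0.00371). Rc3h1 minus Rc3h2 overlapped between PBS and LPS, with differences of -0.17 (exact permutation, adjusted p = 0.461) and -0.36 (exact permutation, p = 0.0498, adjusted 0.0747), the latter past the threshold without ELS-PBS mouse P200_17.2 (-0.45, exact permutation, adjusted p = 0.0119).

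**Figure D3:**
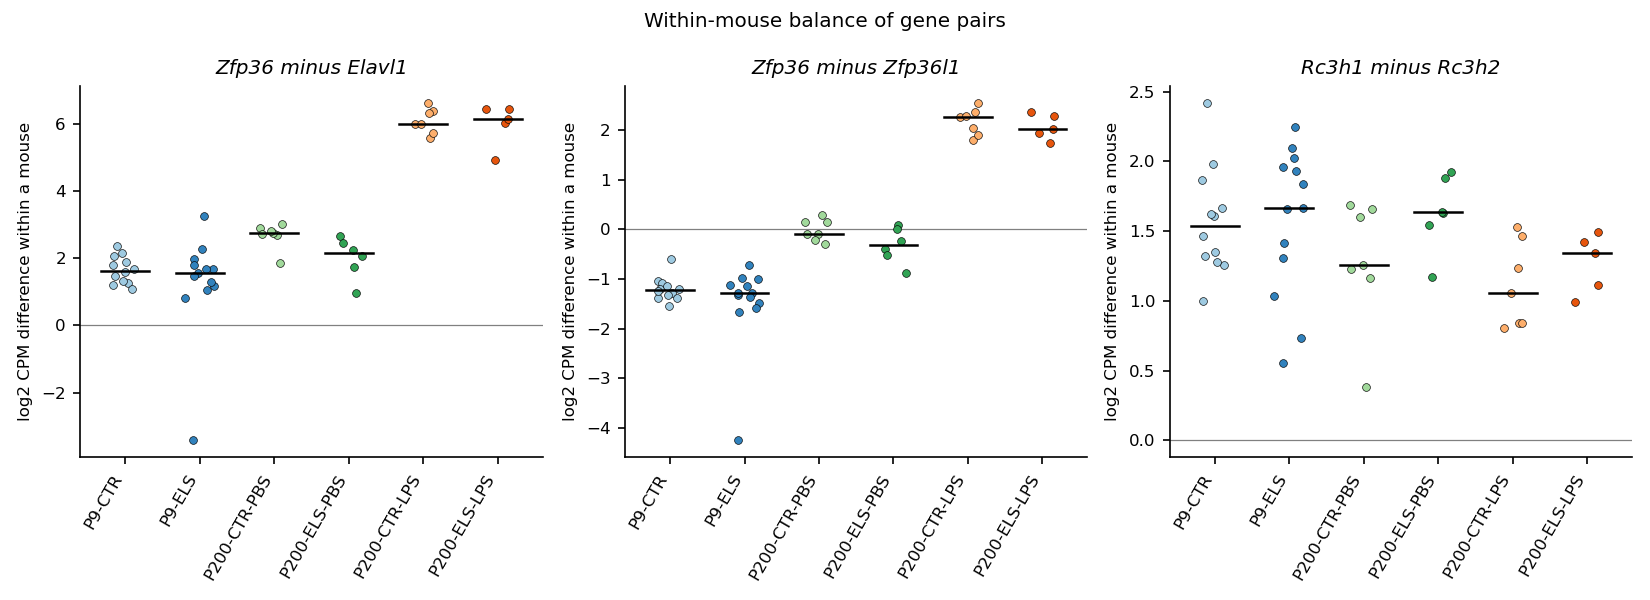
Difference in log2 CPM between a pair of members within each mouse, with 1 point per mouse and a bar at the median of the 6 groups. LPS mice lie above all PBS mice for Zfp36 minus Elavl1 and for Zfp36 minus Zfp36l1, and the groups overlap for Rc3h1 minus Rc3h2.

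Levels of different genes were compared as CPM per kb of annotated exon. In P9-CTR, Zfp36l1 was first with a median of 92.5 CPM per kb, then Zfp36 with 36.3, Zfp36l2 with 9.67, Rc3h1 with 4.98 and Elavl1 with 2.88, and none of these neighbours overlapped. Zc3h12a (1.24) followed without overlap, and its range overlapped with that of Rc3h2 (0.918), which in turn overlapped with that of Zc3h12c (0.672). Zc3h12b (0.243) and Zc3h12d (0.121) came last, below all Zc3h12c values and overlapping each other. In CTR-PBS, Zfp36l1 (80.3) and Zfp36 (73.1) overlapped, ahead of Zfp36l2 (14.9). In CTR-LPS, Zfp36 was first with 896, then Zfp36l1 with 193, without overlap, and Zc3h12a, Rc3h1 and Zfp36l2 followed with 7.53, 5.83 and 4.60 and overlapping ranges. Zfp36 thus made up a median of 24.2% of the members' summed CPM per kb in P9-CTR, 39.2% in CTR-PBS and 79.4% in CTR-LPS, and 76.5% in ELS-LPS. Zfp36l2 made up 8.49% in CTR-PBS and 0.524% in CTR-LPS. The exon length differs widely, from 3209 bases for Zfp36l1 to 22007 for Rc3h2, and the transcripts in use were not determined.

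**Figure D4:**
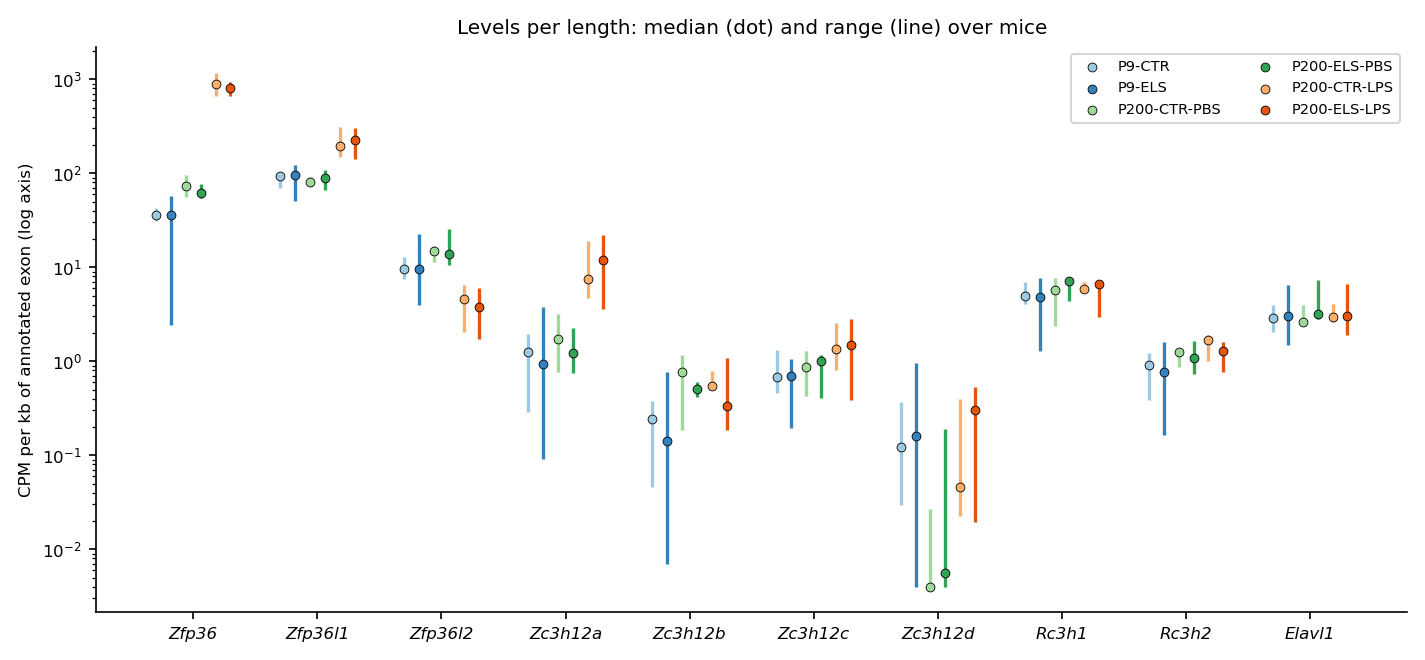
Median (dot) and range (line) over mice of each member's CPM per kb of annotated exon (log axis) in the 6 groups, with medians and minima of 0 drawn at the lower end for Zc3h12d. Zfp36l1 is highest at P9 and Zfp36 in the LPS groups, and Zc3h12d and Zc3h12b are lowest.

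The promoters of the 3 members that rose in each condition are shown because they moved together. They come from RefSeq (GRCm38.p6), as windows of 300 bases that end just after the start, on the minus strand at chr7:28379179-28379478 (Zfp36), chr12:80112964-80113263 (Zfp36l1) and chr4:125127832-125128131 (Zc3h12a). The table held 10 promoters for 9 of the 10 members. On either strand, 5 motifs were searched, and no match of one overlapped a match of another in these promoters: the kappa B consensus (in 8.49% of 32544 promoters), the CArG box (1.64%), the STAT palindrome TTCNNNGAA (8.33%), the cAMP response element TGACGTCA (1.8%) and the TATA box TATAAA (13.6%). Capitals mark the matches, which were a CArG box from -58 to -49 and a STAT palindrome from -17 to -9 in Zfp36 and a TATA box from -29 to -24 in Zfp36l1. The Zc3h12a window held none of these letters. Of the other promoters, a Zc3h12c promoter held a kappa B match from -236 to -227.
Zfp36: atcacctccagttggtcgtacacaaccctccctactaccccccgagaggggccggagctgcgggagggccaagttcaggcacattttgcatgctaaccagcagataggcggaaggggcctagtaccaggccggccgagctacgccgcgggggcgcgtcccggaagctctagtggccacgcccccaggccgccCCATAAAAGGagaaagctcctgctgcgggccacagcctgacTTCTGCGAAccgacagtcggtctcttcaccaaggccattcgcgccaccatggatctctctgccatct
Zfp36l1: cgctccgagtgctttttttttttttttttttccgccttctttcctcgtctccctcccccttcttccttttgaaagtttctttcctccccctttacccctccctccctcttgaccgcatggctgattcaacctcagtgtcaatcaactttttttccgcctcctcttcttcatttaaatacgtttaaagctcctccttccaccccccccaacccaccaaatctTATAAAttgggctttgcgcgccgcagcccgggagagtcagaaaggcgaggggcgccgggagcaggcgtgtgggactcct
Zc3h12a: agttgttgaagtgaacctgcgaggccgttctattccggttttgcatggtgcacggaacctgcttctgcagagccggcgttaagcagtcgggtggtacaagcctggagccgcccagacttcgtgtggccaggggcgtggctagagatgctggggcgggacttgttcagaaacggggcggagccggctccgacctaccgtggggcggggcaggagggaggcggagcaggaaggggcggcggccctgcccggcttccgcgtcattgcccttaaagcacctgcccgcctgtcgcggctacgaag

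Between P9 and P200, 4 of 10 members passed in CTR (44.1% of all genes tested) and 5 of 10 in ELS (42.2%), shares near that background. In CTR, 3 rose and 1 fell, where 2911 genes rose and 4445 fell among the 16696 tested. In ELS, 4 rose and 1 fell, where 2863 genes rose and 4182 fell. On the log2 scale the median change was 0.30 for CTR mice and 0.41 for ELS mice, beside -0.09 and -0.01 over all genes. Zfp36, Zfp36l2 and Zc3h12b rose and Zc3h12d fell in each condition, and Rc3h1 rose in ELS. The calls were the same genes without P9-ELS mice P9_19.2 and P9_19.3. Without CTR-PBS mouse P200_1.1 as well, Rc3h1 passed in CTR too, which made 5. With the added demand of an absolute log2 fold change above 1, which 26.4% and 26.2% of all genes met, 3 members passed in CTR and 2 in ELS. At the adjusted p alone, the 5 members in ELS became 3 when ELS-PBS mouse P200_4.1, P200_11.1, P200_17.1 or P200_20.2 was left out. With only the P9-ELS and ELS-PBS mice in the fit, Zfp36 was the single member that passed, and the adjusted p of the others was 0.0728 to 0.09. With counts summed per nest, Zfp36l2 lost its call in each condition (adjusted p = 0.107 and 0.128) and Rc3h1 in ELS (adjusted p = 0.129).

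Zfp36 had 107.5, 127 and 147.7 CPM in the lowest, median and highest P9-CTR mouse, and every CTR-PBS mouse, from 198 CPM, was above them. It was the member whose age groups did not overlap upward in CTR (6.56% of all genes), and its log2 fold change was 1.03 ± 0.21 (adjusted p = 6.27e-05). In ELS, P9 mice had 8.46, 127 and 201 CPM, which overlapped with ELS-PBS through mouse P9_19.3, and the log2 fold change was 0.82 ± 0.21 (adjusted p = 0.00156), or 0.78 (adjusted p = 2.13e-08) without mice P9_19.2 and P9_19.3. Zfp36l1 had 222, 297 and 320 CPM in P9-CTR and did not pass, at -0.16 ± 0.13 (adjusted p = 0.34) for CTR mice and -0.12 ± 0.14 (adjusted p = 0.508) for ELS mice. Zfp36l2 had 28.5, 36.4 and 48.1 CPM in P9-CTR and rose by 0.55 ± 0.21 (adjusted p = 0.0285) for CTR mice and by 0.55 ± 0.21 (adjusted p = 0.0357) for ELS mice, with overlapping ranges. The ELS value rests on mouse P200_20.2, without which it was 0.34 (adjusted p = 0.236), the call was also lost without mouse P200_2.1 (adjusted p = 0.0545), and the call in CTR was lost without mouse P200_5.1 or P200_18.2 (adjusted p = 0.0556 and 0.0504).

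Zc3h12b, the least studied Regnase gene (ENSMUSG00000035045, chrX:94755284-94976243, plus strand), had 0.372, 1.95 and 3.06 CPM in P9-CTR and 1.51, 6.24 and 9.31 CPM in CTR-PBS. It rose by 1.53 ± 0.43 (adjusted p = 0.00313) for CTR mice and by 1.28 ± 0.44 (adjusted p = 0.0161) for ELS mice, where it was 1.26 (adjusted p = 0.0728) with only the P9-ELS and ELS-PBS mice in the fit. In ELS, the highest P9 mouse was P9_19.2 with 6.18 CPM, above all ELS-PBS mice. Zc3h12d had 272 counts in P9-CTR and 427 in P9-ELS. All 12 P9-CTR mice, from 0.186 CPM, were above all CTR-PBS mice, at most 0.171 CPM, a downward separation that 10.5% of all genes showed. The gap was narrow and the raw counts overlapped, with 3 in P9-CTR mouse P9_51.3 and 5 in CTR-PBS mouse P200_18.2. Zc3h12d fell by 4.60 ± 1.08 (adjusted p = 0.00049) for CTR mice and fell by 2.66 ± 0.98 (adjusted p = 0.0242) for ELS mice, where the CPM ranges overlapped. The CTR value was -6.13 without CTR-PBS mouse P200_18.2. The ELS value was -4.80 without ELS-PBS mouse P200_17.2, and the call in ELS was lost without mouse P200_4.1, P200_11.1, P200_17.1 or P200_20.2 (-2.47 to -2.40, adjusted p = 0.0544 to 0.0552) and with only the P9-ELS and ELS-PBS mice in the fit (-2.67, adjusted p = 0.0746). In ELS, no member's age groups were separate (4.61% of all genes upward and 7.03% downward).

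Rc3h1 (ENSMUSG00000040423, chr1:160733982-160802548, plus strand) had 14.9, 54.8 and 88.1 CPM in P9-ELS and 50.1, 81.4 and 89.9 CPM in ELS-PBS. It rose by 0.51 ± 0.19 (adjusted p = 0.0276) in ELS, against 0.19 ± 0.19 (adjusted p = 0.444) in CTR, and the difference between the conditions was not past the threshold (interaction 0.32 ± 0.27, adjusted p = 0.734). The call in ELS was lost without ELS-PBS mouse P200_4.1, P200_11.1 or P200_17.1 (adjusted p = 0.0512, 0.0694 and 0.0552) and with only the P9-ELS and ELS-PBS mice in the fit (0.49, adjusted p = 0.0839). Zc3h12a, Zc3h12c, Rc3h2 (ENSMUSG00000075376, chr2:37258909-37313172, minus strand) and Elavl1 (ENSMUSG00000040028, chr8:4332576-4375489, minus strand) did not pass with age in either condition. Zfp36 minus Elavl1 within a mouse was 1.03 higher at P200 in CTR (exact permutation, adjusted p = 0.000714) and 0.74 in ELS (exact permutation, adjusted p = 0.371), or 0.49 (exact permutation, adjusted p = 0.0916) without mice P9_19.2 and P9_19.3. Zfp36 minus Zfp36l1 was 1.18 higher in CTR (exact permutation p = 1.98e-05, the smallest possible, adjusted 0.000238) and 1.15 in ELS (exact permutation, adjusted p = 0.0014). Rc3h1 minus Rc3h2 differed by -0.29 (exact permutation, adjusted p = 0.219) and 0.06 (exact permutation, adjusted p = 0.811).

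Markers of other cells moved with age as well. The summed border macrophage markers went from 477 to 921 CPM at P9 to at most 11.8 CPM at P200, where Cd163, Lyve1 and Clec10a had a median of 0 in each group, and the summed neuron markers from 41.4 to 192 CPM to at most 15.7 CPM. Of each of these lists, 8 of 8 genes fell in CTR and 6 in ELS. Of 8 astrocyte markers, 7 fell and Slc1a3 rose in each condition, and their sum was 140 to 471 CPM at P9 and 302 to 503 CPM in PBS mice. Of 5 tested oligodendrocyte precursor markers, 4 fell in CTR and 3 in ELS, and of 6 tested oligodendrocyte markers, Ermn, Mobp and Mag rose in each and Mog fell in CTR. Of 6 tested endothelial markers, 3 fell in each, and 1 rose in CTR and 2 in ELS. Of the 10 microglia markers, 7 rose and 1 fell in each. Of the immediate early list, 8 of 13 genes rose in CTR and 9 in ELS. The part of these cells and of tissue handling in the members' changes was not tested.

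No member passed between ELS and CTR, at P9 (0.0% of all genes), in PBS mice (0.168%) or in LPS mice (0.0%), and the same count of 0 was given by edgeR's likelihood-ratio test, by DESeq2 and without the libraries P9_19.2, P9_19.3 and P200_1.1. At an unadjusted p under 0.05, 0 of 10 members passed at P9, 2 in PBS mice and 0 in LPS mice, beside 5.47%, 9.71% and 4.78% of all genes. The members' median log2 fold change was -0.03, 0.08 and -0.04, beside 0.00, 0.01 and -0.01 over all genes. The 2 members in PBS mice were Elavl1 and Zc3h12d, and the latter rested on mouse P200_17.2. Elavl1 had 33.9, 36.6 and 55.05 CPM in the lowest, median and highest CTR-PBS mouse and 39.1, 45.1 and 102 CPM in ELS-PBS. ELS-PBS mice P200_2.1 (80.9 CPM) and P200_20.2 were high, and the other 4 lay within the CTR-PBS range. The log2 fold change was 0.53 ± 0.25 (95% interval 0.03 to 1.02, adjusted p = 0.483).

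For Zfp36, the interval of the ELS difference was -0.37 to 0.33 at P9, -0.71 to 0.26 in PBS mice and -0.60 to 0.42 in LPS mice. For Zfp36l1 it was -0.15 to 0.29, -0.20 to 0.41 and -0.30 to 0.34, and for Zc3h12a it was wider, at -0.74 to 0.54, -1.34 to 0.44 and -0.67 to 1.16. The response to LPS did not differ between conditions past the threshold for any member (0 of 10, also at an unadjusted p under 0.05, beside 5.87% of all genes). The interaction was 0.14 ± 0.36 for Zfp36, -0.33 ± 0.36 for Zfp36l2 and 0.69 ± 0.65 (95% interval -0.580 to 1.963) for Zc3h12a. The interaction of age and condition gave 0 of 10 members as well (0.0299% of all genes at the adjusted p and 10.3% at the unadjusted p). An ELS difference of 1 on the log2 scale lay outside the intervals of Zfp36 and Zfp36l1 in all 3 settings. It lay within those of Zc3h12a in adult mice. The intervals treat each mouse as independent, whereas ELS was assigned to whole litters, so they may be too narrow to exclude such a difference.

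Tnf, the best known target of these proteins, had 134, 225 and 433 CPM in the lowest, median and highest CTR-LPS mouse, and the ELS-LPS mice in the order above had 277, 137, 65.1, 368 and 663 CPM. Whether members follow Tnf from mouse to mouse was examined over the 12 LPS mice, as log2 CPM, with permutation tests (100000 resamples) adjusted over the 10 members. Zc3h12c had r = 0.88 (adjusted p = 0.0011) and rho = 0.86 (adjusted p = 0.0061). Elavl1 had r = 0.84 (adjusted p = 0.0031) and rho = 0.776 (adjusted p = 0.0195), Zc3h12a r = 0.76 (adjusted p = 0.016) and rho = 0.762 (adjusted p = 0.0195), and Zc3h12d r = 0.72 (adjusted p = 0.0201) and rho = 0.706 (adjusted p = 0.0324). Zfp36, the member with the largest share after LPS, had r = 0.51 (adjusted p = 0.141) and rho = 0.364, and Zfp36l2 had r = -0.33 and rho = -0.294. The other values of r were 0.57 for Zfp36l1, 0.50 for Rc3h1, 0.19 for Rc3h2 and 0.13 for Zc3h12b. The share of all genes that follow Tnf at this threshold was not determined, so whether the relation is particular to the members was not tested.

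The relations of Zc3h12c, Elavl1 and Zc3h12d were carried in part by ELS-LPS mice P200_20.1 and P200_11.2, the highest and lowest in Tnf. That of Zc3h12a was not weaker without both mice. Without both, r was 0.744 for Zc3h12c, 0.771 for Zc3h12a, 0.633 for Zc3h12d, 0.632 for Elavl1 and -0.313 for Rc3h1. Within the 7 CTR-LPS mice, the 4 values were 0.636, 0.697, 0.822 and 0.587, with exact permutation p of 0.12, 0.0881, 0.0312 and 0.178 before adjustment, and no correlation was computed over the 5 ELS-LPS mice alone. Without mouse P200_20.1, 2 members passed, Elavl1 and Zc3h12c, and r was 0.673 for Zc3h12a and 0.689 for Zc3h12d (adjusted permutation p = 0.0591 each). Without mouse P200_11.2, r of Zc3h12d was 0.669 (adjusted permutation p = 0.0706).

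**Figure D5:**
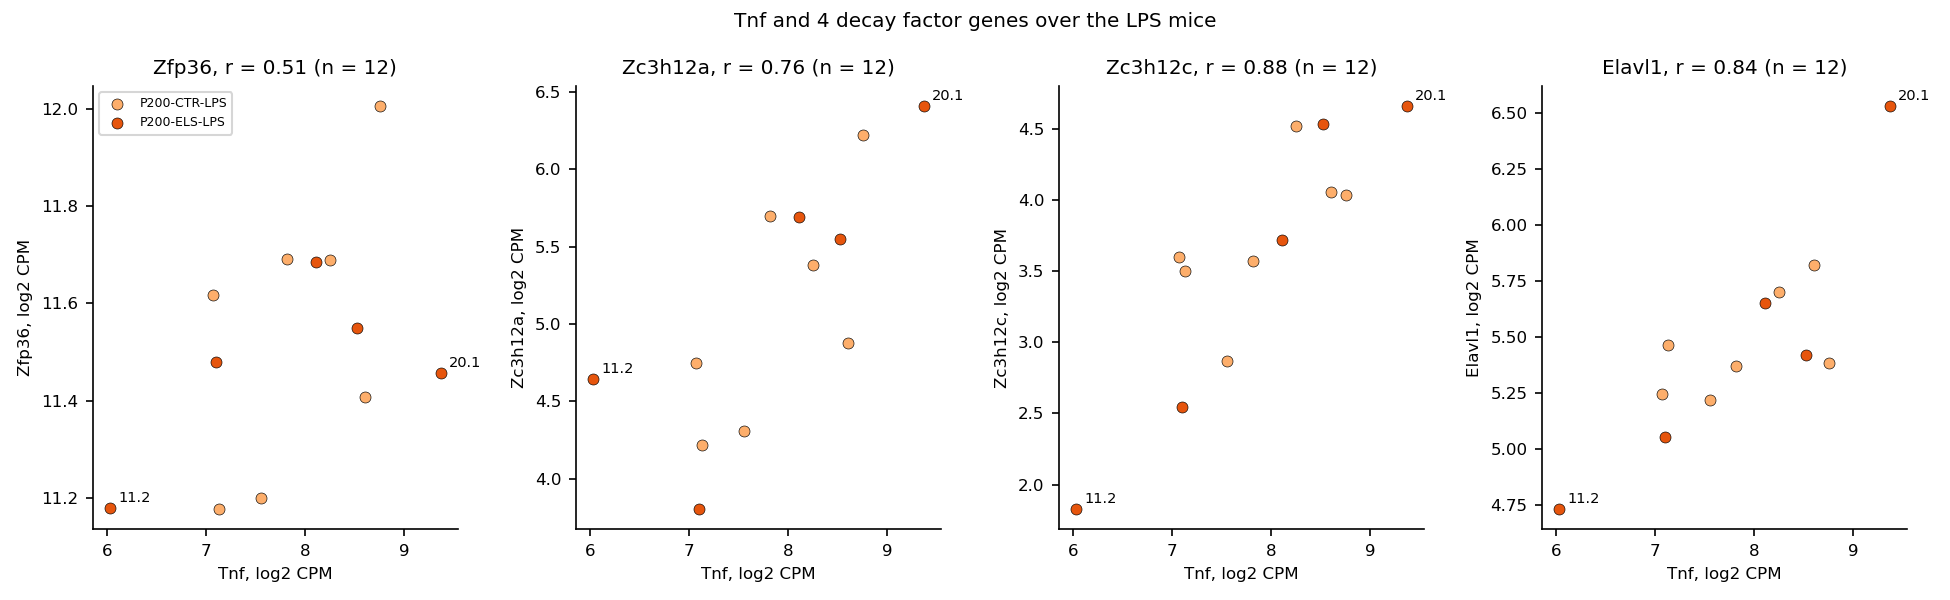
Log2 CPM of Tnf (x) against log2 CPM of Zfp36, Zc3h12a, Zc3h12c and Elavl1 (y) in the 7 CTR-LPS and 5 ELS-LPS mice, with Pearson's r over the 12. ELS-LPS mice P200_20.1 and P200_11.2 lie at the ends of the Tnf axis, and Zfp36 shows the loosest relation of the 4.

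The genes most like each member over the 25 adult mice were named by Pearson's r of log2 CPM among 11053 genes, a description in which the PBS and LPS groups enter together. For Zfp36 they were Arid5a (0.992), E230013L22Rik (0.99) and B4galt3 (0.988). For Zfp36l1 they were Csrnp1, Bach1 and Itga5 (0.964 each), and for Zc3h12a Nfkbie (0.945), Myd88 (0.942) and Rbpj (0.939). Zfp36l2, which fell, was closest to Sox4 (0.967), Arl4c (0.962) and Arhgap5 (0.943). Rc3h1 had lower values, with Atf2 at 0.851, Gm43696 at 0.85 and Pja2 at 0.844.

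The machinery that these proteins recruit had members that rose and members that fell. Beside the counts of this and the following lists, 14.9% of all genes passed with LPS in CTR and 12.3% in ELS. With age, 44.1% passed in CTR and 42.2% in ELS. A gene said to rise with LPS in 1 condition alone did not pass the threshold in the other. No gene of these lists passed in the interaction of LPS and condition, so such genes are not shown to differ between conditions. Of 15 genes of the CCR4-NOT deadenylase and its TOB and BTG adaptors, 3 rose and 1 fell with LPS in CTR, and 2 rose and 1 fell in ELS, and the medians on the log2 scale were 0.19 and -0.13. The adaptors Btg2 (3.03 ± 0.14 in CTR and 2.90 ± 0.16 in ELS) and Btg1 (2.05 ± 0.24 and 2.01 ± 0.27) rose, Cnot10 rose in CTR (0.52 ± 0.17), and the deadenylase Cnot8 fell by 0.50 ± 0.12 in CTR and fell by 0.45 ± 0.14 in ELS. Btg2 went from 223 to 318 CPM in CTR-PBS to 1841 to 2515 CPM in CTR-LPS. Of 13 genes for PAN2-PAN3, decapping and exonuclease, 2 rose in CTR, the decapping activator Dcp1a (0.94 ± 0.31) and the helicase Ddx6 (0.78 ± 0.18), and Ddx6 in ELS (0.76 ± 0.20), with medians of 0.07 and 0.07. With age, 5 of the 15 rose and 4 fell in CTR, led by Btg2 (1.52 ± 0.12) and Cnot8, and 4 rose and 3 fell in ELS, led by a fall of Cnot6 by 1.57 ± 0.29. Of the 13, 2 rose and 1 fell in CTR and 5 rose and 1 fell in ELS.

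Among 13 tested genes of other AU-rich element binding proteins, 2 rose and 2 fell with LPS in CTR, and 1 rose and 2 fell in ELS (medians 0.01 and -0.15). Arid5a, whose product stabilizes Il6 mRNA against Regnase-1, rose by 4.43 ± 0.36 in CTR and by 4.50 ± 0.39 in ELS, from 18.4 to 40.0 CPM in CTR-PBS to 443 to 1192 CPM in CTR-LPS. Igf2bp3 rose in CTR (1.06 ± 0.23). Tia1, a translational silencer, fell by 0.96 ± 0.19 in CTR and fell by 1.099 ± 0.213 in ELS. Elavl4, a neuronal relative of HuR, fell by 1.93 ± 0.28 and fell by 1.51 ± 0.33. With age, none rose, and 8 fell in CTR and 6 in ELS (medians -0.70 and -0.65). Igf2bp3 fell most clearly, from 67.9 to 90.0 CPM in P9-CTR to 1.63 to 5.70 CPM in CTR-PBS. Elavl2, Elavl3 and Elavl4 were among those that fell, beside the neuron markers above, whose part was not tested.

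Of 16 genes for kinases, phosphatases and proteases that act on the decay factors, 4 rose with LPS in CTR and 3 in ELS, and none fell (medians 0.25 and 0.14). Dusp1, the phosphatase that turns off p38 signalling, rose by 7.17 ± 0.59 and by 6.62 ± 0.62, and Bcl10, a partner of the Regnase-cleaving protease Malt1, by 0.78 ± 0.12 and by 0.69 ± 0.13. Malt1 rose past the threshold in CTR alone (1.14 ± 0.41) and Mapkapk2, the kinase that phosphorylates Zfp36, in ELS alone (1.56 ± 0.28). Mapk11 rose in CTR at no more than 1.91 CPM. The LPS response of these genes did not differ between conditions past the threshold. With age, 2 rose and 3 fell in CTR (44.1% of all genes passed), and 4 rose and 4 fell in ELS (42.2%). Ywhab, a phosphoserine adaptor, fell by 0.99 ± 0.12 in CTR and fell by 0.72 ± 0.13 in ELS, and Bcl10 rose by 0.76 ± 0.10 and by 0.86 ± 0.10.

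Most of the tested mRNAs reported as targets rose after LPS, as Zfp36, Zfp36l1 and Zc3h12a did. Of 15 reported Zfp36 targets, 9 were tested and 8 rose in each condition, where 8.73% of all genes rose in CTR and 7.4% in ELS. Targets low in PBS mice could reach the 1 CPM filter through the LPS mice, which favours a rise among those tested. The counts of targets that rose, here and below, are therefore descriptive. The medians on the log2 scale were 6.50 for CTR mice and 6.61 for ELS mice. Cxcl1 and Cxcl2 had no count in any PBS mouse, and with both at the bound given by 3 counts over the PBS group the medians were 5.48 and 6.59. Ptgs2, which encodes the prostaglandin synthase COX-2, rose by 9.87 ± 0.95 in CTR and by 9.87 ± 1.01 in ELS, Il1b by 7.80 ± 0.71 and by 8.70 ± 0.80, and Tnf by 6.50 ± 0.60 and by 6.59 ± 0.66. With the PBS group at the bound of 3 counts, the mean level of Cxcl2 was 129-fold higher in CTR-LPS and 315-fold higher in ELS-LPS. Single mice ranged from 0.4047 to 7.029 CPM in CTR-LPS and from 1.17 to 17.11 CPM in ELS-LPS. These folds are therefore not a lower limit for each mouse. Of 15 reported Regnase-1 and Roquin targets, 14 were tested, 10 rose in CTR and 9 in ELS, with medians of 3.15 and 3.29, and 2.58 in CTR with Lcn2 at its bound. Il12b, a cytokine subunit, rose by 9.42 ± 1.14 and by 7.95 ± 1.08, and Ier3 by 5.48 ± 0.42 and by 6.61 ± 0.48. Il6, the classical Regnase-1 target, had 1.29 ± 0.58 (adjusted p = 0.133) and 1.28 ± 0.65 (adjusted p = 0.21) and did not pass. Ptgs2, Tnf and Ier3 stand on both target lists. With age, Il6 rose by 5.17 ± 0.57 in CTR and by 4.55 ± 0.54 in ELS, from at most 1.57 CPM in P9-CTR to 11.09 to 22.3 CPM in CTR-PBS. Icos fell by 3.93 ± 0.74 in CTR and fell by 4.165 ± 0.802 in ELS. In all, 4 of the 14 rose and 1 fell with age in CTR, and 5 rose and 1 fell in ELS. Atf3, which is also on the immediate early list, was among those that rose in each condition. Of the 9 Zfp36 targets, 2 rose with age in CTR, Plk3 (1.57 ± 0.44) and Ccl3 (1.14 ± 0.33), and in ELS 1 rose, Plk3 (1.961 ± 0.445), and 1 fell, Ccl2, by 1.33 ± 0.30. No gene of these 6 lists passed between ELS and CTR, in the interaction of LPS and condition or in that of age and condition.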

How the data were processed

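One RNA-seq library was made from the sorted microglia of each of 50 mice. Per the labels and the study's methods, the authors trimmed reads with cutadapt 2.10 after bcl2fastq 2.20, aligned them to GRCm39 with STAR 2.5.4 and counted reads per gene with HTSeq 0.11.0. The annotation version and strand setting are not given in the sources used here. The deposited values are raw counts per gene, and the depth was 5152838 to 42231258 counts per mouse (median 19960410).

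Groups were taken from the labels. A gene was tested if more than 2 mice had at least 1 CPM of it, with edgeR 4.0.16 (R 4.3.3), using TMM scaling, 1 mean per group over all 50 mice and the quasi-likelihood F-test, with Benjamini-Hochberg adjustment over 16696 genes. Log2 CPM used a prior count of 2, and 95% intervals are the value and its SE times the normal quantile. Within-mouse balances were tested with exact two-sided permutation tests. Gene models and 3′ UTRs came from GENCODE vM39 on GRCm39, to which 52610 of 53700 genes matched, and promoters from RefSeq on GRCm38.p6. Alternatives were the likelihood-ratio test, DESeq2 1.42.0, other scalings and filters, counts summed per nest, limma 3.58.1 with the nest as a correlated factor, the nest as a block, and each adult mouse left out. Mice of a nest shared a dam and are not fully independent.

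The members and gene lists were chosen with earlier results of these data known. Named were all members, of each pathway list at most the 4 genes with the largest change among those that passed in a comparison, the 3 genes with the most similar pattern to 5 members, and Tnf. Il6 after LPS was chosen after its values were seen. A monocyte marker and a lymphocyte marker are not reported here, and their lists were summed without them. Python tools were numpy 2.4.6, pandas 2.3.3, scipy 1.17.1 and matplotlib 3.10.9.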

Additional observations from a re-analysis of the deposited data

Results flagged for a closer look

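In 4 of 40 groups of member values tested, 1 mouse lay farther from the rest than Dixon's 95% limit allows, and chance gives about 1 in 20. CTR-PBS mouse P200_1.1 had 43.2 CPM of Zfp36l2, where the other 6 had 54.9 to 63.8 CPM, and 27.4 CPM of Rc3h1, where the others had 60.8 to 88.9 CPM. This is the library with 12854 detected genes. ELS-PBS mouse P200_2.1 had 50.1 CPM of Rc3h1, where the others had 74.9 to 89.9 CPM. ELS-PBS mouse P200_17.2 had 1.197 CPM of Zc3h12d, where the others had at most 0.141 CPM.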

How the results depend on the processing

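The LPS changes of Zfp36, Zfp36l1, Zfp36l2 and Zc3h12a kept their direction and their call under every alternative run, leaving out each adult mouse included, and the log2 fold change of Zfp36 in CTR was 3.45 to 3.61 over the mice left out. No alternative gave a member passing between ELS and CTR or in an interaction. Over all genes, ELS-PBS against CTR-PBS gave 28 calls, 215 with the likelihood-ratio test, 178 with DESeq2, 6 with RLE scaling, 2 with no filter or filterByExpr, 7 with counts summed per nest, 11 with the adult mice alone, and 0 with the groups compared alone or with limma. It gave 1 without P200_1.1, P200_5.1, P200_4.1 or P200_20.2, 68 without P200_17.2, 83 without P200_15.1 (1 to 83 over the adult mice left out) and 135 without P9_19.2 and P9_19.3. The interaction of LPS and condition gave 0, 66 with the likelihood-ratio test and 15 with DESeq2, that of age and condition 5, 29 and 20, and ELS-LPS against CTR-LPS 0, 10 and 2. LPS in ELS gave 2059 calls and 3532 without P9_19.2, P9_19.3 and P200_1.1.

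The age calls in ELS were the least stable. The count of 5 members at the adjusted p became 1 with the groups compared alone (Zfp36), 3 with counts summed per nest, 2 with the demand on fold change and 3 to 5 with each ELS-PBS mouse left out. Rc3h1 minus Rc3h2 in ELS after LPS was -0.40 with 1 mean per nest (exact permutation, adjusted p = 0.0357) and -0.45 to -0.29 with a mouse left out, and its age difference in ELS was -0.0014 to 0.149, reversed without mouse P200_4.1. The count of members that followed Tnf, which has no share over all genes beside it, was 2 to 5 with a mouse left out. The cause was not tested.

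With the nest as a replicate block among the P200 mice, 4 members passed in CTR and 4 in ELS, against 5 and 4 without it, and Zc3h12d in CTR was 3.52 (adjusted p = 0.108). PBS and LPS mice of the same nest deviated together weakly at most (r -0.0411 to 0.0841 over 10 nests, 0 over 0.1, 4 best with their own). Mice of a nest still shared a dam, and such a weak relation does not exclude an effect of the nest. Leaving out P9-ELS mice P9_19.2 and P9_19.3, or CTR-PBS mouse P200_1.1 as well, was chosen after seeing the data. Of the member fold changes, 189 of 197 under other settings and 161 of 172 with a mouse left out kept direction and call. Depth limits Zc3h12d most, with 6 counts in CTR-PBS.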
